A study of Mus musculus with 11 samples.

Results

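The Hox cluster genes were examined in the adventitia (the connective tissue that wraps an artery) of the mouse abdominal aorta. Members were all probe sets whose only gene symbol in the platform annotation was Hoxa, Hoxb, Hoxc or Hoxd followed by a number. This gave 31 of the 12393 genes that the arrays name, read by 37 of 22626 probe sets once control probe sets had been left out. By cluster there were 12 probe sets for Hoxa, 10 for Hoxb, 8 for Hoxc and 7 for Hoxd.

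Hox genes encode homeodomain transcription factors that give cells an address along the body axis. Within each cluster, low-numbered genes lie towards one end and are used from anterior levels of the embryo onwards, while high-numbered genes lie towards the other end and are used at posterior levels. Fibroblasts and smooth muscle cells of adult tissues keep much of the pattern of the region they come from. Hox proteins bind DNA together with partners of the PBX and MEIS families, retinoic acid and Cdx factors help to switch the clusters on, Polycomb proteins hold them silent, and trithorax proteins such as KMT2A keep them active.

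RNA of tissue isolated by laser microdissection of frozen sections was measured on 11 Affymetrix arrays. All mice were male, aged 78 weeks and fed normal chow. The 4 ATLO arrays came from apolipoprotein E-deficient mice (strain B6.129P2-Apoe<tm1Unc>/J) and from adventitia that lay inside an atherosclerotic lesion area and carried an artery tertiary lymphoid organ (ATLO), a lymph node-like aggregate of immune cells. The 4 outside-lesion arrays came from Apoe-deficient mice of the same strain and from adventitia away from lesions, although the series' design text calls these mice free of lesions. The 3 wild-type arrays came from the strain labelled C57BL, and their titles carry the letters PNS, which the labels do not explain. Each Apoe-deficient sample pooled 200 sections of 10 micrometres from an aorta taken out together with paraaortal lymph nodes, fat and connective tissue. Apoe-deficient RNA was amplified by in vitro transcription for 68 h after phenol and chloroform extraction, and wild-type RNA for 24 h after a lipid tissue kit, so genotype and preparation cannot be told apart in any comparison with wild type. The labels do not say whether replicate arrays stem from different animals, and p-values then reflect only sample-to-sample spread, which could be technical.

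Signals are linear intensities without a count behind them, and array medians lay between 151.5 and 191.0. The Apoe signal was 86.9 to 150.2 on ATLO arrays, 45.9 to 179.7 on outside-lesion arrays and 11969.4 to 13164.3 on wild-type arrays, as the genotype labels state. The actin control probe sets give a ratio of 3' over 5' signal, a sign of RNA quality, which was 4.61 ± 2.71 (SD, n = 4) on ATLO arrays, 8.71 ± 2.83 (n = 4) on outside-lesion arrays and 4.98 ± 0.683 (n = 3) on wild-type arrays. Outside-lesion and wild-type arrays did not overlap in this ratio (exact two-sided permutation p = 0.0571, the smallest that 4 against 3 arrays can give), and ATLO and outside-lesion arrays did (exact two-sided permutation p = 0.114).

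The genes that set ATLO apart from outside-lesion adventitia were Hoxa5, Hoxa7, Hoxa9, Hoxd8 and Hoxd9. Their upstream sequences are shown because these genes, from both the Hoxa and the Hoxd cluster, were lower together in ATLO adventitia. Each is the 250 bases before the gene's start in RefSeq, build GRCm38.p6, written 5′ to 3′ on the gene's own strand. The windows are chr6:52204588-52204837 (minus strand) for Hoxa5, chr6:52218574-52218823 (minus) for Hoxa7, chr6:52227371-52227620 (minus) for Hoxa9, chr2:74704365-74704614 (plus) for Hoxd8 and chr2:74697513-74697762 (plus) for Hoxd9. Capitals mark TTTATG, a motif of Cdx and posterior Hox proteins.
Hoxa5: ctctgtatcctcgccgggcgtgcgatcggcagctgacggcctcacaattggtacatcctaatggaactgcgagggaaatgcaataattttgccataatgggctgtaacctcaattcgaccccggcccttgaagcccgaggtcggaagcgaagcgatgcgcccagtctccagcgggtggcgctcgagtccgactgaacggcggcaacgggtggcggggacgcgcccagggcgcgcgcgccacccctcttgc
Hoxa7: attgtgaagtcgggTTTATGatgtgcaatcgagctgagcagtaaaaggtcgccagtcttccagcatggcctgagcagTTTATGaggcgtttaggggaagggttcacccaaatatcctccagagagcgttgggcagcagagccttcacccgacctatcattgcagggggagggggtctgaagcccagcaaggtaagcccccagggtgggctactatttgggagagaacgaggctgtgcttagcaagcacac
Hoxa9: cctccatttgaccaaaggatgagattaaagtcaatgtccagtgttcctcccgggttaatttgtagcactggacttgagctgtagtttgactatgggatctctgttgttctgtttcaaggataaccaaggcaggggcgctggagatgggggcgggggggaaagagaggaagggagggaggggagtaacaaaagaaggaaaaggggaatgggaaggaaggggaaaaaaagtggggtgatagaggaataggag
Hoxd8: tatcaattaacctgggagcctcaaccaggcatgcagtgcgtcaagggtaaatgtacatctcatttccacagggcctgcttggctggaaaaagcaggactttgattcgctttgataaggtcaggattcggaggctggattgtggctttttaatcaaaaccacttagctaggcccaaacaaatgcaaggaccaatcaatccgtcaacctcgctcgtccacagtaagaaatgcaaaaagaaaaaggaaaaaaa
Hoxd9: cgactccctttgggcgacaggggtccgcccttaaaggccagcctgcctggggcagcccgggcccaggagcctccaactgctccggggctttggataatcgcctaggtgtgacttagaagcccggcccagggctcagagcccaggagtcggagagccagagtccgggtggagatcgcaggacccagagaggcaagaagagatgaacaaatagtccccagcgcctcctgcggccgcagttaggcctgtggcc

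A search of both strands covered TTTATG, the PBX-HOX composite motif TGATNNAT, the homeodomain palindrome TAATTA and the TATA box letters TATAAA. Of these 5 windows only that of Hoxa7 held any, namely TTTATG, at positions -236 and -173 relative to the start. Among windows of the same length before all 32851 RefSeq starts, 10.8% held TTTATG, 7.68% TGATNNAT, 4.84% TAATTA and 12.4% TATAAA. Among 20 windows of 18 Hox members, 2 held TTTATG, 3 TGATNNAT, 2 TAATTA and 2 TATAAA. Composition differed among the 5 genes, with a GC content of 63.6% and 28 CpG dinucleotides before Hoxa5, 65.2% and 13 before Hoxd9, 54.8% and 7 before Hoxa7, 49.6% and 3 before Hoxa9, and 44.4% and 6 before Hoxd8. The median over all starts was 52.4% GC and 6 CpG, and over the 20 Hox windows 59.2% and 13. These matches describe the letters only and carry no information on binding.

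On all 11 arrays, 4 of the 37 probe sets, those of Hoxa5, Hoxa9, Hoxc6 and Hoxc8, lay above the median of the same array, whereas 38.5% of all probe sets did. A further 12 were above it on some arrays, from 10 arrays for another Hoxc6 probe set and 9 each for Hoxb2 and Hoxb6 down to 1 for Hoxa11, and 21 on none. The number above the median on every array of a group was 4 probe sets of 4 genes for ATLO, 6 of 5 genes for outside-lesion and 11 of 9 genes for wild-type arrays. Wild type has fewer arrays, which makes this easier to reach. No share over all probe sets is given per group, so these counts do not rank the groups. Because probe sets differ in how well they bind, these levels rank a probe set against its array and not one gene against another.

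Hoxc8, which patterns the thoracic level of the axis, gave 970.7, 731.6, 1141.1 and 1337.3 on ATLO replicates 1 to 4, 1220.7, 1119.1, 1588.0 and 1183.2 on outside-lesion replicates 1 to 4, and 1406.3, 1424.3 and 1045.2 on wild-type replicates 1 to 3. The 3 groups overlapped, and its signal was far above the median everywhere. On the log2 scale it lay 2.52 above the array median in ATLO, 2.94 in outside-lesion and 2.79 in wild-type adventitia. It was called in no comparison (ATLO minus outside-lesion -0.31 ± 0.19 (SE), limma adjusted p = 0.247).

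Hoxc6, another thoracic gene, had 3 probe sets. The one with the highest mean (1427362_x_at) gave 254.1, 265.7, 288.6 and 313.7 on ATLO arrays, 375.1, 286.6, 387.0 and 433.2 on outside-lesion arrays, and 313.1, 391.0 and 464.6 on wild-type arrays. ATLO arrays tended to sit at the lower end but overlapped both other groups, and neither difference passed as deposited (-0.39 ± 0.18 against outside-lesion, limma adjusted p = 0.119, and -0.46 ± 0.20 against wild type, adjusted p = 0.0975). Against outside-lesion it passed as lower under quantile normalization (-0.52 ± 0.18, limma adjusted p = 0.0454), equal array medians (-0.51 ± 0.18, adjusted p = 0.0493) and without outside-lesion replicate 2 (adjusted p = 0.0480). The next (1427361_at) gave 141.2, 212.9, 249.8 and 270.0 on ATLO arrays, 209.8, 286.0, 292.1 and 360.7 on outside-lesion arrays, and 328.7, 346.4 and 400.4 on wild-type arrays. Here every ATLO array was below every wild-type array, and the difference passed (-0.75 ± 0.25, limma adjusted p = 0.0388). It did not pass without ATLO replicate 1 or 2 or any single wild-type array, or with no filter on low values (adjusted p over all alternatives 0.00914 to 0.127). The last (1427454_at) stayed between 3.4 and 122.5 and was not tested.

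Signals of the remaining genes were mostly low. No tested probe set represented 15 genes, namely Hoxa2, Hoxa4, Hoxa13, Hoxb1, Hoxb3, Hoxb7, Hoxb9, Hoxb13, Hoxc5, Hoxc13, Hoxd1, Hoxd10, Hoxd11, Hoxd12 and Hoxd13, and the highest signal of any untested probe set was 139.3. Hoxb13, the last gene of its cluster, was between 1.5 and 5.0 on all arrays, and low signal on an array does not show that a gene is silent. Testing required a signal over the array's own 40th percentile on at least 3 arrays, which 20 of the 37 probe sets (16 genes) reached.

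**Figure D1:**
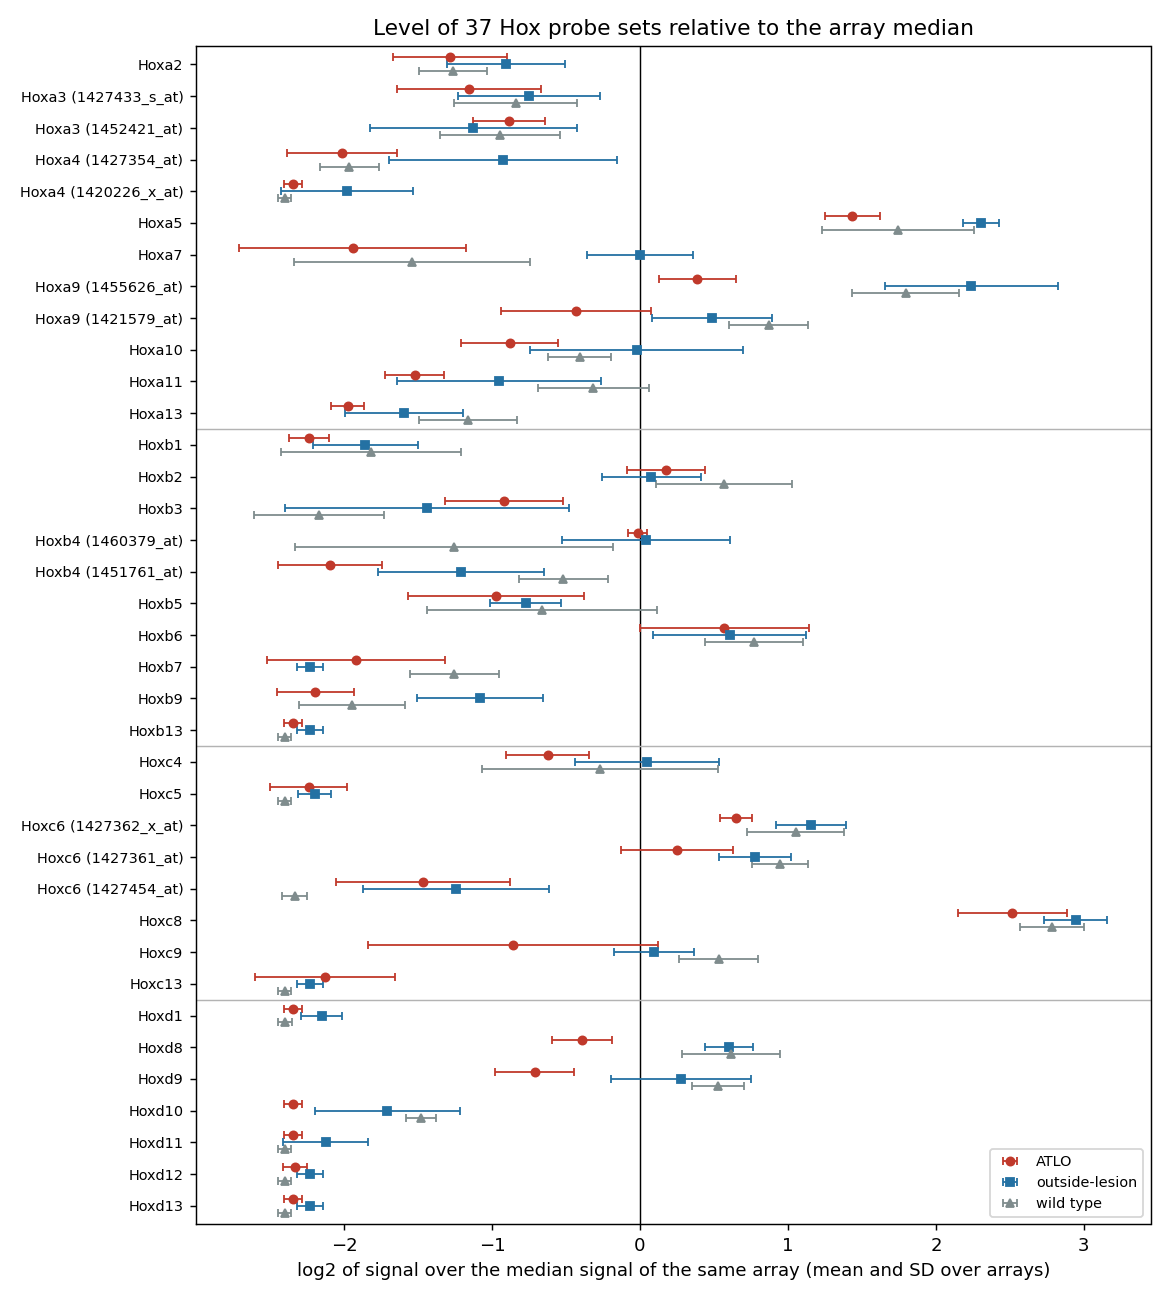
Signal of each of the 37 Hox probe sets relative to the median of its array, as the group mean and SD of the log2 ratio (x axis) for ATLO (n = 4), outside-lesion (n = 4) and wild-type (n = 3) arrays, with signals below 35.1 raised to that value. Hoxc8 lies farthest above the median line in all 3 groups (2.52, 2.94 and 2.79), and Hoxa9 (1455626_at) lies at 0.39 in ATLO against 2.24 in outside-lesion and 1.80 in wild-type adventitia.

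Between ATLO and outside-lesion adventitia, both from Apoe-deficient mice, Hoxa5, Hoxa7, Hoxa9, Hoxd8 and Hoxd9 were lower in ATLO adventitia, by between 1.68-fold and 3.54-fold. No Hox probe set was higher. In all, 6 of 20 tested probe sets passed as lower (limma, adjusted p under 0.05 over 14988 probe sets), which is 30% against 13.9% of all tested probe sets, and 0 passed as higher against 17.9%. At an unadjusted p under 0.05, 8 were lower and 0 higher, but no share over all tested probe sets is given to set beside these counts. The median log2 difference was -0.50 over the 20 Hox probe sets and 0.10 over all tested, and 16 of the 20 were negative. Over the 37 members without any filter on low values, 5 passed as lower, among them Hoxb9 (-0.997 ± 0.243, limma adjusted p = 0.0204), and Hoxd9 and a second Hoxa9 probe set no longer passed. The share over all 22626 probe sets is not given for that refit, so these 5 of 37 do not show an excess. Of the 20, 17 had arrays above the 40th percentile in all 3 groups, 3 had no such ATLO array, and Hoxa7 entered the test through outside-lesion arrays alone. In bulk tissue, fewer cells of a type and less RNA per cell cannot be told apart.

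Hoxa9, a posterior gene that is also active in blood stem cells and in leukaemia with MEIS1, gave 192.2, 208.4, 242.1 and 306.6 on ATLO arrays, 436.6, 1205.6, 958.0 and 719.1 on outside-lesion arrays, and 548.2, 858.0 and 570.0 on wild-type arrays (1455626_at). Every ATLO array was below every other array. The fall against outside-lesion adventitia was -1.73 ± 0.28 on the log2 scale, a 3.32-fold lower signal (limma adjusted p = 4.23e-04). The other Hoxa9 probe set (1421579_at) gave 175.9, 133.2, 152.7 and 85.4 on ATLO arrays, 142.5, 248.5, 311.7 and 255.1 on outside-lesion arrays, and 333.0, 416.1 and 281.1 on wild-type arrays. It overlapped between ATLO and outside-lesion arrays through outside-lesion replicate 1. Its difference was -0.80 ± 0.28 (limma adjusted p = 0.0438), which passed in 10 of 22 alternatives (settings or arrays left out, at the same threshold) and was lost without any of ATLO replicates 2, 3 or 4, outside-lesion replicates 2, 3 or 4, or wild-type replicates 1 or 2 (adjusted p over all alternatives 0.0106 to 0.216).

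Hoxa7, the neighbour of Hoxa9 in the cluster, gave 24.6, 13.5, 19.9 and 108.0 on ATLO arrays, 181.6, 198.2, 121.9 and 167.1 on outside-lesion arrays, and 73.2, 28.1 and 100.8 on wild-type arrays. The 4 outside-lesion arrays were above all others, and 3 of 4 ATLO arrays were at or below 35.1, the floor to which signals were raised. The difference between ATLO and outside-lesion adventitia was -1.82 ± 0.44 (limma adjusted p = 0.00600), a value that the floor makes smaller. Hoxa7 entered the test only through the outside-lesion arrays on which it is high, so this p cannot support the difference. With no filter on low values, where entry did not depend on its signal, limma gave an adjusted p of 0.0203.

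Hoxa5, which acts in lung development and in the cervical and upper thoracic skeleton, gave 506.1, 416.4, 522.1 and 491.1 on ATLO arrays, 814.4, 730.6, 896.2 and 815.6 on outside-lesion arrays, and 481.0, 554.3 and 897.7 on wild-type arrays. ATLO and outside-lesion arrays were separate, while wild-type arrays spanned both. ATLO adventitia was lower by 1.68-fold (-0.75 ± 0.18, limma adjusted p = 0.00700). With the actin ratio as a covariate the difference was -0.56 ± 0.23 and did not pass (limma adjusted p = 0.115).

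Hoxd8 gave 117.4, 150.9, 154.5 and 125.0 on ATLO arrays, 207.1, 269.0, 289.4 and 239.7 on outside-lesion arrays, and 250.7, 255.2 and 358.9 on wild-type arrays. All 4 ATLO arrays were below all 7 others. The difference from outside-lesion adventitia was -0.87 ± 0.20 (limma adjusted p = 0.00458), and it passed in all 22 alternatives, as did that of the brighter Hoxa9 probe set. Its neighbour Hoxd9, which acts in the limb and the lumbar and sacral levels of the axis, gave 99.2, 117.5, 84.9 and 142.6 on ATLO arrays, 123.6, 280.5, 243.6 and 186.2 on outside-lesion arrays, and 259.6, 307.8 and 239.6 on wild-type arrays. ATLO arrays overlapped outside-lesion replicate 1 and were below all wild-type arrays. The difference from outside-lesion adventitia was -0.87 ± 0.27 (limma adjusted p = 0.0250), and it was lost without ATLO replicate 1 or 3 or outside-lesion replicate 2 or 3 (adjusted p over all alternatives 0.00496 to 0.0712).

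**Figure D2:**
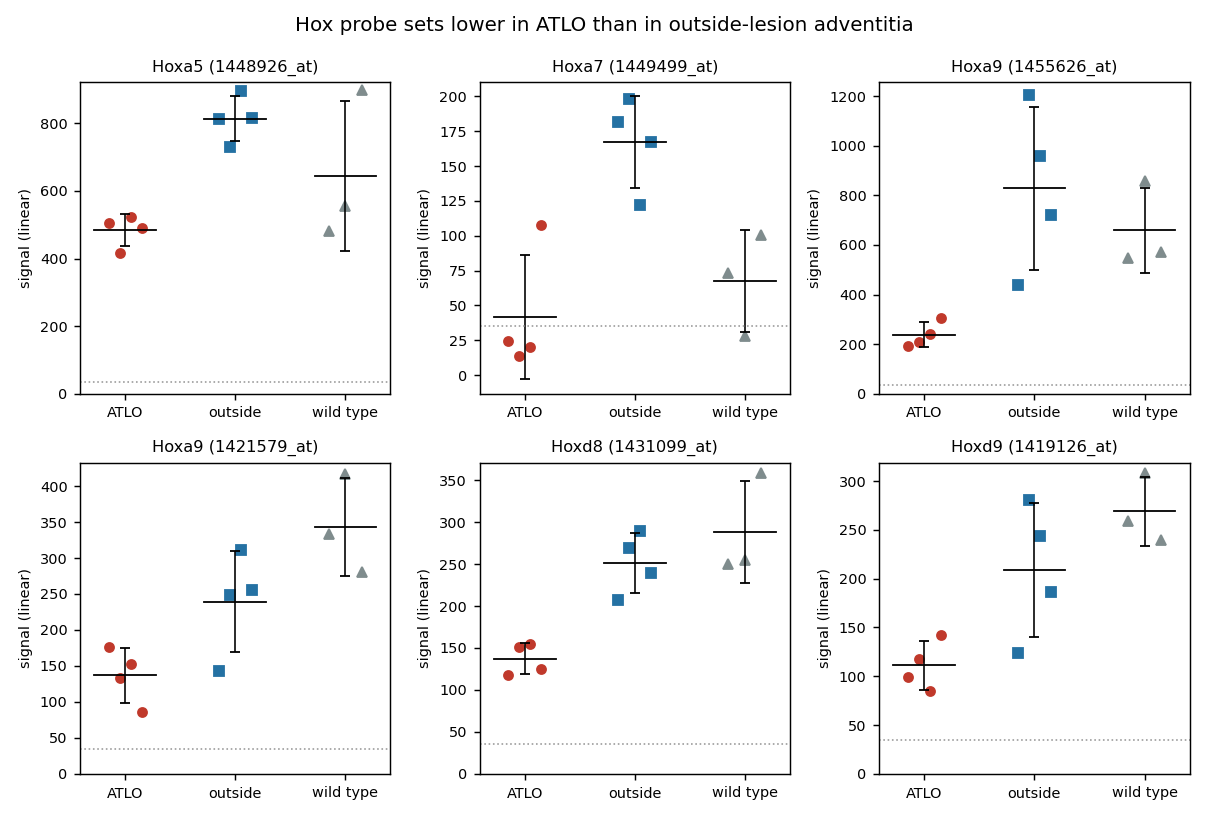
Signal (linear axis, arbitrary units) on each array for the 6 Hox probe sets called between ATLO and outside-lesion adventitia, with the mean (bar) and SD of each group and a dotted line at the floor of 35.1. ATLO arrays lie apart from outside-lesion arrays for Hoxa5, Hoxa7, Hoxd8 and one Hoxa9 probe set (1455626_at), and overlap them for Hoxd9 and the other Hoxa9 probe set.

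By position, the calls lay among middle and posterior paralogs, a split chosen after the values were seen. Of probe sets for paralogs 1 to 4, 0 of 6 tested were called and the median difference was -0.11. For paralogs 5 to 8, 3 of 8 were called with a median of -0.40, and for paralogs 9 to 13, 3 of 6 with a median of -0.82. By cluster, 4 of 8 were called in Hoxa, 0 of 5 in Hoxb, 0 of 5 in Hoxc and 2 of 2 in Hoxd, and under the other scalings 1 of 5 in Hoxc. Over all tested probe sets 13.9% were called lower. The 3 of 8 and the 4 of 8 include Hoxa7, which entered the test through outside-lesion arrays alone. Differences between these classes or clusters were not tested. The uncalled Hoxa10, a gene of uterine and hindlimb patterning, gave 76.0, 137.0, 92.4 and 91.6 on ATLO arrays, 77.0, 273.1, 196.6 and 165.7 on outside-lesion arrays, and 135.5, 165.7 and 121.8 on wild-type arrays. Its ATLO and outside-lesion arrays overlapped, and its difference was -0.74 (limma adjusted p = 0.127), but it passed as lower with array weights (-0.82 ± 0.29, adjusted p = 0.0451) and without outside-lesion replicate 1 (-1.10 ± 0.28, adjusted p = 0.0110). Hoxb2 at 0.22 (adjusted p = 0.538), Hoxb6 at 0.08 (adjusted p = 0.868) and Hoxc4 at -0.55 (adjusted p = 0.258) missed the limma threshold too.

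**Figure D3:**
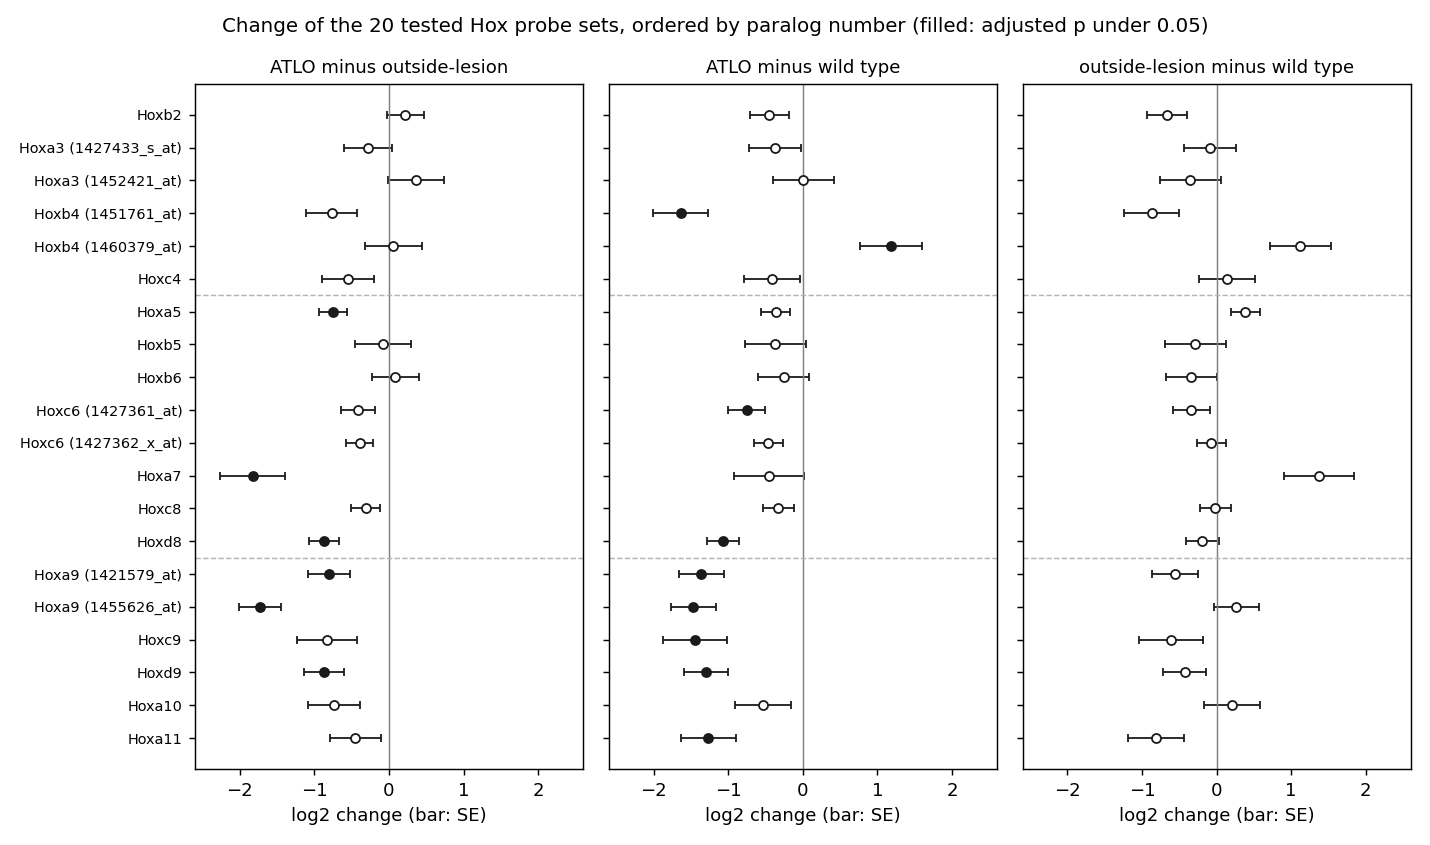
Log2 difference and standard error for the 20 tested Hox probe sets in the 3 comparisons, ordered by paralog number, with filled points at limma adjusted p under 0.05 and dashed lines between paralogs 1 to 4, 5 to 8 and 9 to 13. Filled points lie below 0 at Hoxa5, Hoxa7, Hoxa9, Hoxd8 and Hoxd9 for ATLO against outside-lesion adventitia, and no point is filled for outside-lesion against wild type.

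Marker genes of several cell types also differed between the groups. For the counts of ATLO against outside-lesion adventitia, 17.9% of all tested probe sets were higher and 13.9% lower. Of 7 fibroblast markers, 6 were higher in ATLO than in outside-lesion adventitia (median log2 difference 1.22), and their summed signal was 50377.5 to 94474.5 on ATLO arrays, 26618.1 to 69320.3 on outside-lesion arrays and 46564.3 to 51825.9 on wild-type arrays. Decorin (Dcn), a broad fibroblast marker, was at 0.14 (limma adjusted p = 0.729). Of 6 smooth muscle markers, 2 were lower, and their summed signal was 12199.2 to 30979.5, 20575.0 to 63871.6 and 41654.0 to 45823.9 in the same order of groups. In ATLO against wild-type adventitia, 5 of 6 smooth muscle markers were lower and 3 of 7 fibroblast markers higher. The share of all tested probe sets there was 13.4% each way. Markers of T cells (5 of 5 tested), B cells (4 of 5) and macrophages (5 of 6) were higher in ATLO than in outside-lesion adventitia. The summed signal was 3096.7 to 6091.9 on ATLO arrays and 401.8 to 661.1 on outside-lesion arrays for T cells, 7438.7 to 19157.6 and 533.3 to 1747.1 for B cells, and 26340.9 to 42723.1 and 10598.6 to 17287.4 for macrophages.

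Markers of fat moved the other way. Lower in ATLO than in outside-lesion adventitia were 4 of 5 adipocyte markers and 4 of 4 brown adipocyte markers, and 3 of 5 endothelial markers. Of all tested probe sets 13.9% were lower. Brown adipocyte markers summed to 1239.3 to 4353.5 on ATLO arrays, 6520.0 to 74974.9 on outside-lesion arrays and 15266.2 to 40910.1 on wild-type arrays. Of the neuron and skeletal muscle markers tested, 0 of 5 and 0 of 2 were called. Both tested epithelial markers, Cdh1 and Epcam, were higher in ATLO, but they passed the filter on low values only through ATLO arrays. Their calls therefore cannot support a difference, and the epithelial markers Krt8 and Krt18 were not tested. No marker was at or below the floor on all 11 arrays. The part of these cell types in the Hox differences was not tested. On outside-lesion replicate 2, Ucp1, the brown fat uncoupling protein, was 143.4, against 26124.7, 26623.9 and 20512.9 on the other 3 arrays of the group. That array had the highest signal of its group for the brighter Hoxa9 probe set, 1205.6, and the next to lowest for the other, 248.5. Outside-lesion replicate 1, which had the lowest signal of its group for both, had a Col1a1 signal of 2432.6 against 626.6 to 797.9 on the other 3, and 7 Hox probe sets were called when it was left out.

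Against wild-type adventitia, mainly posterior paralogs were lower in ATLO adventitia. Hoxa9, Hoxa11, Hoxc9, Hoxd8 and Hoxd9 passed, together with single probe sets of Hoxc6 and Hoxb4, and a second Hoxb4 probe set was higher. This made 8 lower (40% of 20 tested, against 13.4% of all probe sets) and 1 higher (5.0% against 13.4%). Hoxa11 and the lower Hoxb4 probe set are among the 8, and both entered the test with no ATLO array above the 40th percentile. The median log2 difference was -0.46 over the Hox probe sets and -0.05 over all tested, and 18 of the 20 were negative. By position, 5 of 6 probe sets of paralogs 9 to 13 were lower (median -1.33), 2 of 8 of paralogs 5 to 8 (median -0.41), and 1 lower and 1 higher of 6 of paralogs 1 to 4 (median -0.39). The same ATLO arrays enter the comparison with outside-lesion adventitia. Without wild-type replicate 2, 4 of the 9 calls were left (both Hoxa9 probe sets, Hoxd8 and Hoxd9), and without wild-type replicate 3, those and the Hoxb4 rise, 5 in all.

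The brighter Hoxa9 probe set was lower by -1.47 ± 0.30 (limma adjusted p = 0.00377) and the other by -1.36 ± 0.30 (adjusted p = 0.00581), with no overlap in either. Hoxd8 was lower by -1.06 ± 0.22 (limma adjusted p = 0.00339) and Hoxd9 by -1.30 ± 0.29 (adjusted p = 0.00595), again with no overlap. These 4 passed in all 22 alternatives.

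Hoxc9, which acts at the thoracic level and is a gene of white fat depots, gave 15.4, 135.1, 165.8 and 119.7 on ATLO arrays, 127.3, 205.1, 208.0 and 175.2 on outside-lesion arrays, and 223.9, 286.4 and 300.5 on wild-type arrays. Wild-type arrays were above all 8 others. ATLO adventitia was lower than wild type by -1.44 ± 0.43 (limma adjusted p = 0.0257, and 0.00960 to 0.0846 over the alternatives). That call was lost without wild-type replicate 2 or 3, with the floor at the 10th percentile and with no filter on low values. Outside-lesion adventitia differed from wild type by -0.61 ± 0.43 (limma adjusted p = 0.415). Hoxa11, a gene of limb and kidney development, gave 68.3, 69.8, 51.6 and 60.3 on ATLO arrays, 69.3, 165.1, 56.0 and 80.8 on outside-lesion arrays, and 114.7, 184.5 and 156.8 on wild-type arrays. All ATLO arrays were below all wild-type arrays, and outside-lesion replicate 2 alone of its group reached the wild-type range. The difference was -1.27 ± 0.37 (limma adjusted p = 0.0237), lost without ATLO replicate 3. No ATLO array of Hoxa11 was above the 40th percentile, so it entered the test through the other groups. Its p therefore cannot support the difference, though it also passed with no filter on low values. Without the filter on low values, Hoxd10 (-0.92 ± 0.24, limma adjusted p = 0.0296) and Hoxa13 (-0.87 ± 0.25, adjusted p = 0.0448) also passed as lower than in wild type.

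The probe sets of Hoxb4, a gene that expands blood stem cells, went in opposite directions. One (1460379_at) gave 167.0, 181.7, 181.2 and 176.2 on ATLO arrays, 275.1, 123.2, 168.9 and 143.3 on outside-lesion arrays, and 69.2, 40 and 168.6 on wild-type arrays. It was higher in ATLO than in wild-type adventitia by 1.19 ± 0.41 (limma adjusted p = 0.0477), with overlap through wild-type replicate 3, and it passed in 9 of 21 alternatives, being lost without any single ATLO array, outside-lesion replicate 3 or 4, or wild-type replicate 1 or 2. The other (1451761_at) gave 51.1, 17.5, 48.2 and 24.7 on ATLO arrays, 100, 49.5, 54.1 and 95.3 on outside-lesion arrays, and 105.1, 148.6 and 139.2 on wild-type arrays. All wild-type arrays were above all others, 2 ATLO arrays were below the floor, and the difference was -1.63 ± 0.37 (limma adjusted p = 0.00612). It passed in all 18 alternatives that tested it, the one with no filter on low values included. With no ATLO array above the 40th percentile, this probe set entered the test through the other groups, so its p cannot support the difference. Because the probe sets disagreed, no direction is given for Hoxb4.

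**Figure D4:**
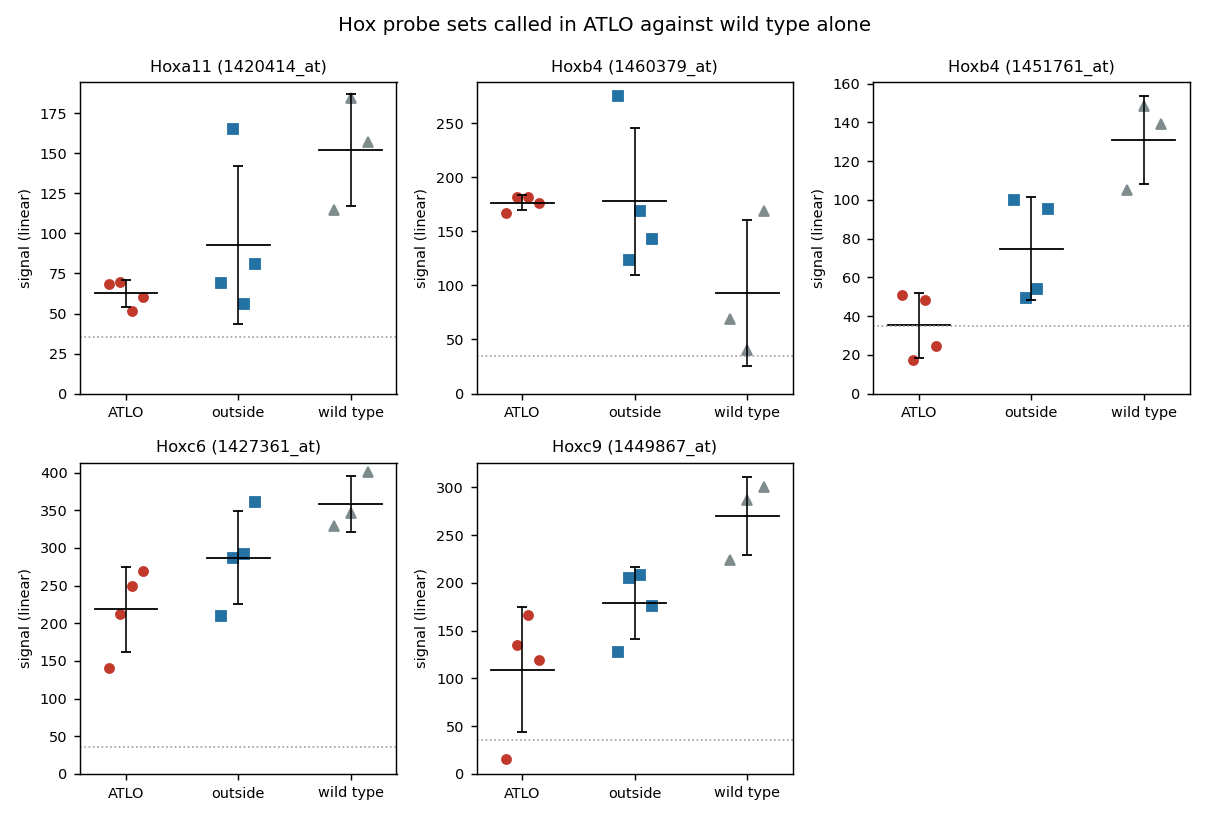
Signal (linear axis, arbitrary units) on each array for the Hox probe sets called between ATLO and wild-type adventitia and not between ATLO and outside-lesion adventitia, with the mean (bar) and SD of each group and a dotted line at the floor of 35.1. Wild-type arrays lie above all ATLO arrays for Hoxa11, Hoxc9, Hoxc6 (1427361_at) and Hoxb4 (1451761_at), and ATLO arrays lie mostly above them, with overlap, for Hoxb4 (1460379_at).

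Outside-lesion and wild-type adventitia, which differ in genotype and preparation, had no Hox probe set past the limma threshold. Of 20 tested, 0 were lower against 1.54% of all probe sets and 0 higher against 1.72%. At an unadjusted p under 0.05, 3 were lower and 2 higher, again without a share over all probe sets. The median log2 difference was -0.24 over the Hox probe sets and -0.11 over all tested. Intervals were wide: Hoxa7 differed by 1.37 ± 0.47 (limma adjusted p = 0.121) with no overlap between the groups, and the lower Hoxb4 probe set (1451761_at) by -0.87 ± 0.37 (adjusted p = 0.188). That Hoxb4 probe set, Hoxc9 and Hoxb2 (-0.66 ± 0.27, limma adjusted p = 0.166) did not overlap either, all lower in outside-lesion adventitia. No share without overlap is given over all probe sets. Hoxa7 entered the test only through the outside-lesion arrays on which it is high, so its p and its lack of overlap cannot support a difference. These values do not show that the groups are alike.

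The partners and regulators of Hox genes were read from a list of 56 genes, of which 49 had a probe set and 35 were tested. Between ATLO and outside-lesion adventitia 4 were higher and 2 lower (median 0.29), which is 11.4% and 5.71% against 17.9% and 13.9% of all tested probe sets. Between ATLO and wild type 3 were higher and 3 lower (median -0.11), which is 8.57% each way against 13.4% of all tested probe sets. Between outside-lesion and wild type 0 were called by limma (1.72% higher and 1.54% lower over all probe sets). There, 1 was higher and 8 lower at an unadjusted p under 0.05, without a share over all probe sets. Where a gene had several probe sets, the one with the highest mean stood for it. Other probe sets of Pbx2 and Meox2 passed as lower, and of Jarid2 as higher, in ATLO against outside-lesion adventitia and were not counted.

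Among DNA-binding partners, 0 of 6 tested TALE genes (the PBX, MEIS and PKNOX families) were called between ATLO and outside-lesion adventitia. Meis1 gave 311.3, 266.5, 262.7 and 336.7 on ATLO arrays, 268.2, 185.6, 202.0 and 105.7 on outside-lesion arrays, and 270.9, 314.7 and 441.9 on wild-type arrays. ATLO and outside-lesion arrays overlapped through outside-lesion replicate 1, and the difference was 0.70 ± 0.26 (limma adjusted p = 0.0591). Meis2 gave 234.0, 250.4, 260.5 and 307.7 on ATLO arrays, 227.6, 364.9, 279.7 and 278.5 on outside-lesion arrays, and 379.1, 469.7 and 457.8 on wild-type arrays. Wild-type arrays were above all others, and ATLO adventitia was lower than wild type by -0.73 ± 0.19 (limma adjusted p = 0.0146).

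Retinoic acid genes gave the largest change of the list. Aldh1a2, which makes retinoic acid from retinal, gave 302.7, 311.6, 469.5 and 467.5 on ATLO arrays, 105.5, 173.7, 82.6 and 199.1 on outside-lesion arrays, and 15.4, 36.8 and 87.2 on wild-type arrays. All ATLO arrays were above all others. Aldh1a2 was higher in ATLO than in outside-lesion adventitia by 1.53 ± 0.36 (limma adjusted p = 0.00529) and than in wild type by 2.97 ± 0.39 (adjusted p = 2.48e-04). The receptor genes Rarg (-0.57 ± 0.18, limma adjusted p = 0.0244) and Rxrb (-0.78 ± 0.26, adjusted p = 0.0372) were lower in ATLO than in outside-lesion adventitia, and Aldh1a1, another enzyme of the same step, was lower than in wild type (-0.87 ± 0.22, adjusted p = 0.0110).

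Of 17 tested Polycomb and trithorax genes (H3K27 demethylases included), 3 were higher in ATLO than in outside-lesion adventitia (17.6% against 17.9% of all probe sets) and 2 were higher than in wild type (11.8% against 13.4%), shares near or below the background. Kmt2a, the methyltransferase that keeps Hox genes active, gave 771.8, 921.0, 991.1 and 851.6 on ATLO arrays, 525.3, 481.1, 621.2 and 579.5 on outside-lesion arrays, and 612.7, 574.1 and 645.4 on wild-type arrays. All ATLO arrays were above all others, by 0.68 ± 0.14 over outside-lesion (limma adjusted p = 0.00214) and 0.53 ± 0.15 over wild type (adjusted p = 0.0192). The other Kmt2a probe set passed against outside-lesion (0.61 ± 0.17, limma adjusted p = 0.0145) but not against wild type (0.47 ± 0.18, adjusted p = 0.0770). Ezh2, the Polycomb methyltransferase and a gene of dividing cells, gave 406.3, 649.5, 356.5 and 345.4 on ATLO arrays, 185.5, 237.7, 299.3 and 196.4 on outside-lesion arrays, and 230.8, 413.1 and 143.8 on wild-type arrays. ATLO and outside-lesion arrays were separate (0.91 ± 0.31, limma adjusted p = 0.0360), while wild type overlapped ATLO. Rnf2, a ubiquitin ligase of Polycomb, was higher in ATLO than in outside-lesion adventitia (0.53 ± 0.15, limma adjusted p = 0.0161), but its other tested probe set gave 0.27 (adjusted p = 0.322). Against wild type the remaining calls were Ring1 among Polycomb genes (0.87 ± 0.25, limma adjusted p = 0.0204) and Evx2, the homeobox gene beside the Hoxd cluster (-1.56 ± 0.40, adjusted p = 0.0125). Evx2 met the filter on low values only with the wild-type arrays, where it was high (160.4 to 185.6). Its p therefore cannot support the difference.

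**Figure D5:**
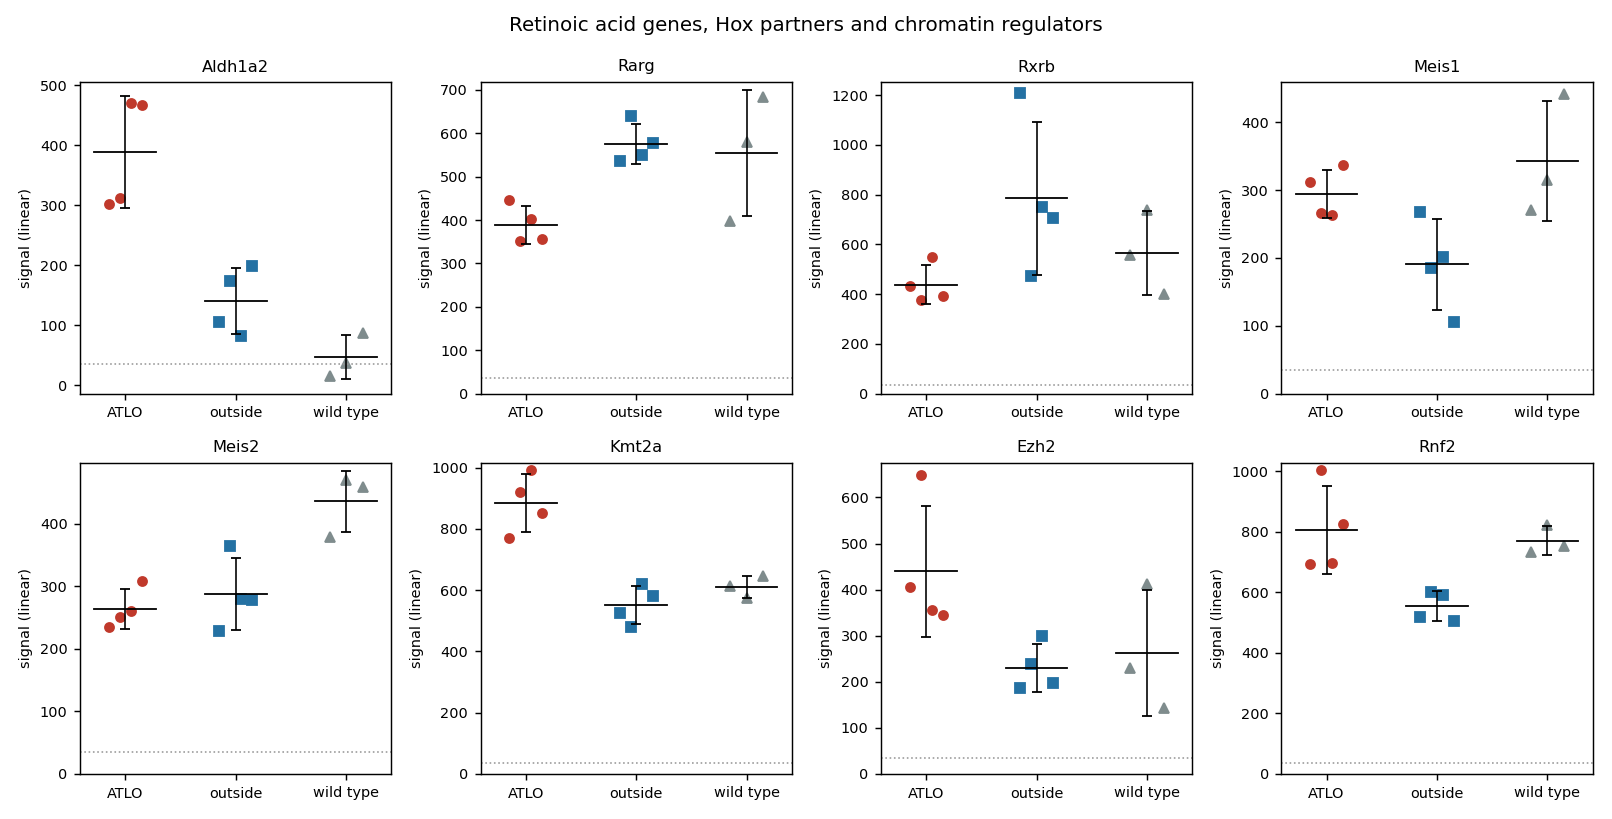
Signal (linear axis, arbitrary units) on each array for named partner and regulator genes, with the mean (bar) and SD of each group and a dotted line at the floor of 35.1. ATLO arrays lie above all others for Aldh1a2 and Kmt2a, and wild-type arrays lie above all others for Meis2.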

How the data were processed

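Adventitia of the mouse abdominal aorta was measured on 11 arrays (4 ATLO, 4 outside-lesion, 3 wild type). The authors deposited 1 linear signal intensity for each probe set and array, made with GCOS 1.4 per the submitters' processing notes. Each array's mean after trimming 2% at each end was 500.168 to 500.266, so the authors had scaled the arrays alike. The summary method and the array's genome build are not given in the sources used here. Genes were named from the platform annotation, and probe sets with several symbols (3 for Hox genes) were left out.

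Signals under 35.1 (the 20th percentile over the whole table) were set to it before log2 was taken, which understates differences near that floor. Testing required signal over the array's own 40th percentile on at least 3 arrays (14988 of 22626, of 22690 with 64 controls left out). A limma 3.58.1 model (R 4.3.3) with group means and a trended variance prior used all 11 arrays, with Benjamini-Hochberg adjustment over all tested probe sets and calls at adjusted p under 0.05. The fit was checked on simulated data. Errors are SE for log2 differences and SD for signals, and the number of arrays limits the precision. Array values were printed for Hox probe sets called in any comparison or above the median of all arrays, and partner genes were named where called between ATLO and outside-lesion adventitia, with Meis1, Meis2, Kmt2a and Ezh2 in any case. Other genes (Hoxa10, Hoxb9, the genes gained without the filter, Aldh1a1, Ring1, Evx2, Pbx2, Meox2, Jarid2, Ucp1 and Col1a1) were chosen after their values were seen. The members, lists and tests were chosen with earlier results of these data known. Alternatives were other scalings, floors and filters, only the compared groups, a replicate block, no trend, array weights, the actin ratio as a covariate, a 2-fold threshold and each array left out.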

Additional observations from a re-analysis of the deposited data

Results flagged for a closer look

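The Hoxa7 signal on ATLO replicate 4 was 108.0, against 24.6, 13.5 and 19.9 on the other 3 ATLO arrays, which were all at or below the floor of 35.1. Its gap to the next array over the range of the group was 1 on the floored log2 values, which follows from the other 3 arrays sharing the floor. On the deposited signal it was 0.883, above Dixon's 95% limit of 0.829 for 4 samples, and on log2 of the deposited signal 0.711, below it. It was the only such array among 26 groups of 4 checked over 13 probe sets, and chance gives about 1 in 20. Hoxa7 passed the filter on low values only through outside-lesion arrays, where it is high, so refits with that filter do not support its difference. With no filter the limma adjusted p was 0.0203. No explanation was tested.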

How the results depend on the processing

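Of 15 called results for single Hox probe sets, 8 passed in every refit that tested them, and of 320 refits 279 still passed, 41 did not and 0 had the opposite sign. The 8 include Hoxa7 against outside-lesion and Hoxb4 (1451761_at) against wild type, which entered the test with no ATLO array above the filter. Refits in which a probe set failed the filter are not counted, so for these members the count is no support. Between ATLO and outside-lesion adventitia 6 probe sets were called, 2 (Hoxa7 and Hoxa9, 1455626_at) with a 2-fold threshold, and 4 to 7 without one array. With the actin ratio as a covariate 4 were called, without Hoxa5 (-0.56 ± 0.23, from -0.75 ± 0.18) and the dimmer Hoxa9 probe set, 1421579_at (-0.72 ± 0.37, from -0.80 ± 0.28). Calls were gained for Hoxc6 (1427362_x_at) under quantile normalization, equal array medians and without outside-lesion replicate 2, for Hoxa10 with array weights and without outside-lesion replicate 1, and for Hoxb4 (1451761_at) with no intensity trend. Between ATLO and wild type 9 were called, and 4 to 8 without one array. Between outside-lesion and wild type 0 were called, but 1 with the floor at the 30th percentile (Hoxa7, which entered through outside-lesion arrays alone) and 1 with array weights (Hoxb4, 1460379_at). In the same comparison 0 partner genes were called, but 1 (Aldh1a2) under quantile normalization and 1 under equal array medians. Probe sets above the array's median on all arrays numbered 4, and 8 and 2 at the 40th and the 60th percentile. With the replicate number as a replicate block, 5, 9 and 0 were called in the 3 comparisons, and the dimmer Hoxa9 probe set lost its call against outside-lesion. Same-numbered arrays were not taken as pairs, because no label gives a shared source and not all correlated over 0.1 (5 of 10 did, 9 were above 0, range -0.178 to 0.273). That 7 of 10 arrays were closest to their own number is a hint from the data. Equal array medians moved the median difference of all probe sets by -0.12 in ATLO against outside-lesion, where the share of calls that were higher went from 56.3% to 44.1%, and by 0.17 in outside-lesion against wild type, where it went from 52.8% to 87.3%. Relative to all probe sets the Hox median was -0.60 in ATLO against outside-lesion with either scaling. The cause of these shifts was not tested, and signals near the floor limit what dim paralogs can show.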

Other observations

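Some Hox-related probe sets fall outside the members. Hoxa11os, transcribed from the strand opposite Hoxa11, was 7.4 to 63.3 on ATLO arrays, 24.4 to 64.1 on outside-lesion arrays and 84.5 to 169.0 on wild-type arrays, so wild-type arrays were above all others, as they were above ATLO arrays for Hoxa11. It was not tested, because too few arrays passed the filter, and the annotation does not say whether its probes tell the strands apart. Hoxd10, untested for the same reason, was 10.3 to 31.3 on ATLO arrays, 21.7 to 72.3 on outside-lesion arrays and 60 to 71.3 on wild-type arrays, with every ATLO array below the floor of 35.1. Probe sets shared by Hoxd4 and Hoxd3 lay between 18.7 and 95.9, and the one shared by Hoxb8 and Hoxb7 between 54.0 and 135.0.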
